A study of Mus musculus with 6 samples.

Results

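The Lce and Sprr genes encode 2 families of small cornified envelope proteins, and all genes whose symbol starts with Lce or Sprr followed by a digit were taken from the deposited table, leaving out 1 row marked as a pseudogene (Sprr2j-ps). They made up 35 of 30386 genes, with 21 Lce genes (14 Lce1, 6 Lce3 and 1 Lce6) and 14 Sprr genes (2 Sprr1, 10 Sprr2, 1 Sprr3 and 1 Sprr4). Expression had been measured by 3'DGE, a sequencing method whose reads come from the 3' ends of mRNAs, in back-skin epidermis of mouse embryos at E18.5, shortly before birth. The groups were 3 libraries of the genotype p63alphaKO and 3 libraries of wild-type (WT) embryos, all of the same stage and tissue. The labels state neither how the p63alphaKO allele was made nor whether replicates were separate embryos, so p-values set the groups against the spread between these libraries only.

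The cornified envelope is the protein shell that replaces the plasma membrane of keratinocytes as they die and become the outer layer of the skin. Involucrin and other early proteins form a scaffold, loricrin is added in bulk, and transglutaminases cross-link them. Small proline-rich (Sprr) proteins act as cross-bridges within the shell, and late cornified envelope (Lce) proteins are added last. Sprr genes are known to be induced by injury and oxidative stress, and AP-1 factors are known to act at several Sprr promoters. p63 is the transcription factor that epidermis depends on, and its alpha isoforms carry a C-terminal domain that the other isoforms lack.

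The libraries held 3539604, 3431580 and 3350442 reads in p63alphaKO replicates 1 to 3, against 2564407, 4474764 and 3174444 reads in WT replicates 1 to 3. Values are CPM, reads scaled to the library's total, and 10 CPM corresponded to between 25.7 and 44.8 reads per library. Summed CPM of 10 keratinocyte markers spanned 109180 to 116360 in p63alphaKO and 110420 to 118820 in WT, so the labelled tissue carried its markers in every library. Krt10, Krt1, Flg and Lor gave most of that sum, so it does not show whether the others were equal. Krt15 had 375, 340 and 368 CPM in p63alphaKO libraries, against 742, 1572 and 1728 CPM in WT libraries. It was the 1 marker of the 10 called, and was lower (log2 fold change -1.80, limma adjusted p = 0.00164). Reads on Trp63, the p63 gene, stood at 143, 146 and 136 CPM in p63alphaKO libraries, against 63.9, 71.7 and 87.2 CPM in WT libraries; 3'-end counts of a whole gene do not show which isoform was made, so they do not check the allele. WT replicate 3 stood apart in the families described here. It was the lowest of all 6 libraries in 19 of 19 tested Lce genes and 8 of 9 tested Sprr genes, while it was the lowest for 16.2% of all 7464 tested genes. Sums, medians and the log2 fold changes of family genes described singly are therefore also given without it.

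Of the 35 genes, 28 had a mean of at least 10 CPM and were tested, 19 Lce and 9 Sprr. The tests were part of a limma fit across 7464 genes on log2(CPM + 1). The other 7 (Lce3a, Lce3b, Sprr2a1, Sprr2a2, Sprr2a3, Sprr3 and Sprr4) had means of at most 4.84 CPM. Since a gene could pass this minimum through the group where it was high, counts over the 28 describe the tested genes and not the families as a whole.

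Both families had more reads in p63alphaKO epidermis. Summed Lce levels were 17857, 17780 and 22087 CPM in p63alphaKO libraries, against 14782, 10969 and 5227 CPM in WT libraries. Summed Sprr levels were 3152, 4159 and 5129 CPM in p63alphaKO libraries, against 2338, 2895 and 486 CPM in WT libraries. In both sums every p63alphaKO library lay above every WT library, and WT replicate 3 lay far below the other WT libraries, at 0.406 of their mean for Lce and 0.186 for Sprr. The p63alphaKO mean was 1.86 times the WT mean for Lce and 2.18 times for Sprr, and 1.49 and 1.58 times without WT replicate 3. The families together took 2.10%, 2.19% and 2.72% of reads in p63alphaKO libraries, against 1.71%, 1.39% and 0.571% in WT libraries. In bulk epidermis, more cells in the last layers and more RNA per cell cannot be told apart.

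**Figure D1:**
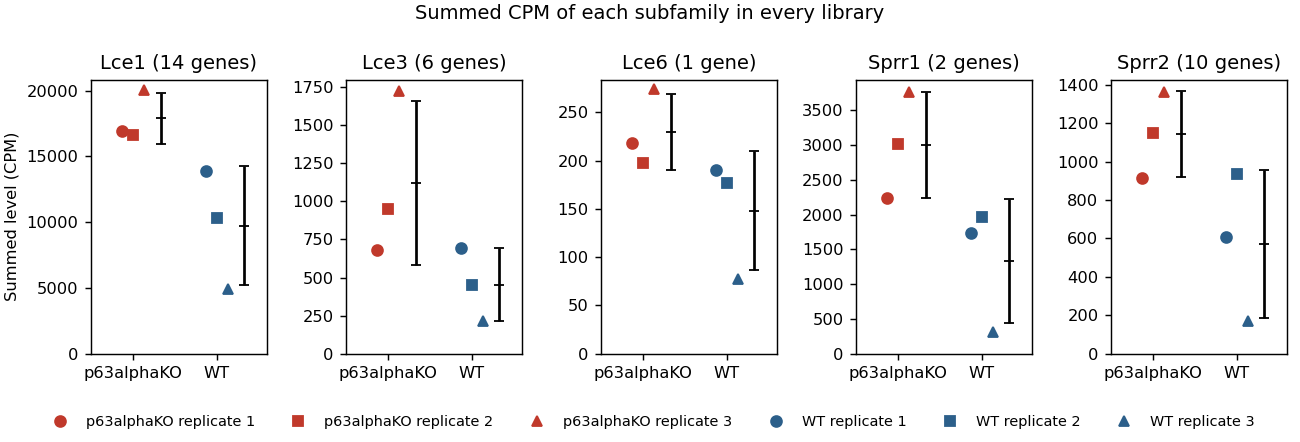
Summed CPM of each subfamily (y axis, starting at 0) in the 3 p63alphaKO and the 3 WT libraries, with 1 symbol shape per replicate number and black bars for mean ± SD. Groups do not overlap for Lce1, Lce6 and Sprr1, while for Lce3 and Sprr2 the lowest p63alphaKO library lies at 0.984 and 0.978 of the highest WT library.

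Few single genes passed the test, although all 28 pointed the same way. By limma with Benjamini-Hochberg adjustment over all tested genes, 1 of 19 Lce genes (Lce1k) and 0 of 9 Sprr genes were called higher in p63alphaKO, and none was called lower. Among all tested genes 0.469% were called higher and 1.65% were called in either direction. At an unadjusted p under 0.05, 19 of 19 Lce and 6 of 9 Sprr genes were higher, against 6.03% of all tested genes; edgeR called 0 genes of either family (0.281% of all called higher) and DESeq2 called 4 Lce and 1 Sprr (2.04% of all). The log2 fold change was positive for 19 of 19 Lce genes (median 1.17, range 0.72 to 1.54) and 9 of 9 Sprr genes (median 1.41, range 0.33 to 1.64), against 40.2% of all tested genes, whose median was -0.085. The groups did not overlap for 16 Lce and 5 Sprr genes, against 7.6% of all tested genes that were higher without overlap. At least 2-fold higher means on that scale were seen for 14 Lce and 6 Sprr genes, against 1.49% of all.

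The number of calls changed with single libraries. Without WT replicate 3 the median log2 fold change was 0.59 for Lce genes, 0.68 for Sprr genes and -0.05 for all tested genes. All 19 Lce genes and 7 of 9 Sprr genes were positive without it, against 44.8% of all, and 10 Lce and 5 Sprr genes were at least 1.5-fold higher, against 4.98% of all. Calls without that library numbered 4 in Lce (Lce1f, Lce1h, Lce1i and Lce1k) and 1 in Sprr (Sprr1b), against 0.482% of all genes called higher. Without WT replicate 1 there were 15 Lce calls and no Sprr call (1.21% of all genes called higher). Without WT replicate 2, 6 family genes gained a call, 5 of them Sprr and the rest Lce (0.75% of all genes called higher). Without p63alphaKO replicate 1, 2 or 3 there was no Lce call, against 0.0804%, 0.0804% and 0.0402% of all genes called higher. In other settings, whose member counts stand in the closing section, the share of all genes called higher was 0.63% with a pseudocount of 5, 0.626% with a minimum mean of 1 CPM, 0.399% with a minimum of 50 CPM, 0.924% with upper quartile scaling and 0.549% with a replicate block. TMM and upper quartile scaling put the median of all tested genes at 0.02 and 0.05, and the Lce and Sprr medians at 1.26 and 1.52 with TMM and at 1.29 and 1.55 with the upper quartile.

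**Figure D2:**
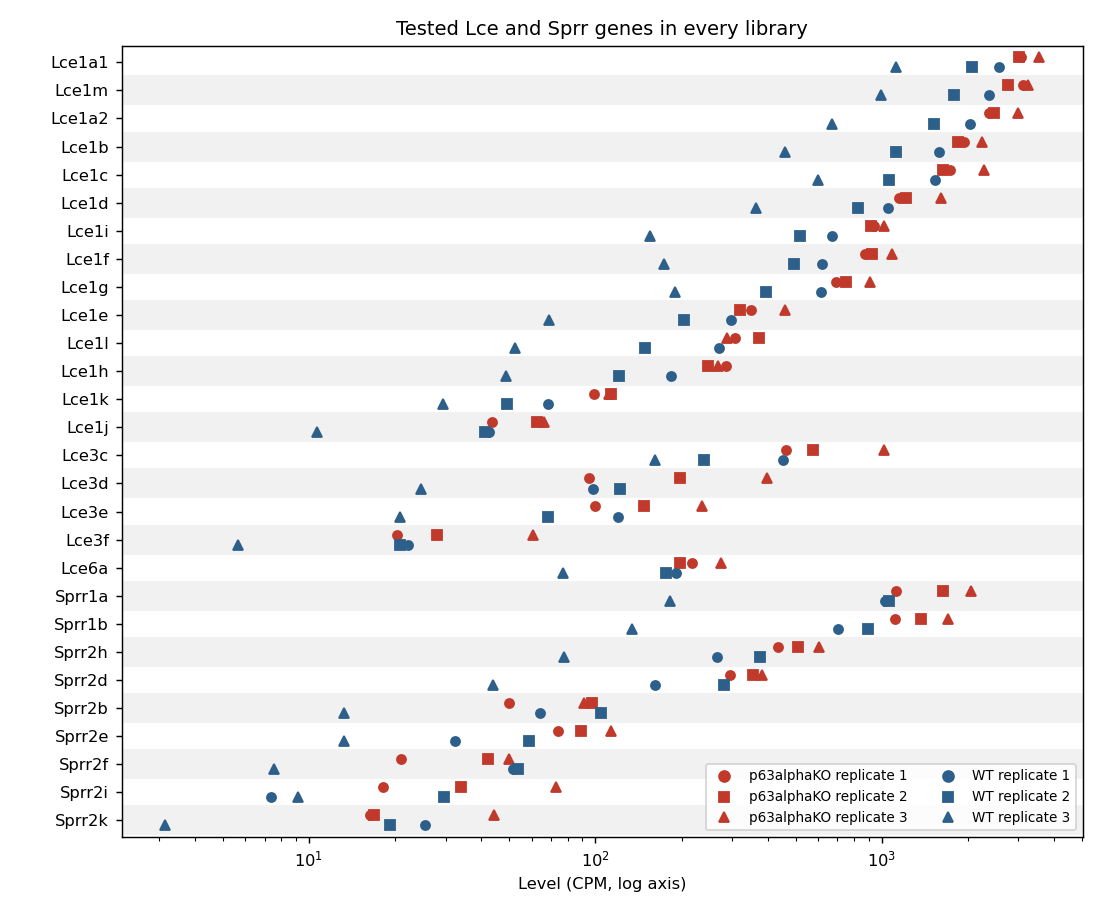
CPM (log axis) of the 28 tested genes in each library, with the p63alphaKO libraries drawn in the upper line of each gene's row, the WT libraries in the lower line, and 1 symbol shape per replicate number. The WT replicate 3 triangle has the lowest CPM for all 19 Lce genes and for 8 of 9 Sprr genes.

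Lce1 is the largest subfamily, and its 14 genes were all tested. Their log2 fold changes ran from 0.82 to 1.36 with a median of 1.11, and in all 14 the lowest p63alphaKO library lay above the highest WT library. The single call was Lce1k, at 98.8, 114 and 112 CPM in p63alphaKO libraries, against 68.2, 49.4 and 29.3 CPM in WT libraries. Its p63alphaKO libraries were close together, and its lowest still exceeded WT replicate 1. The log2 fold change of Lce1k was 1.21 ± 0.26 (SE; limma, adjusted p = 0.0316) and 0.88 without WT replicate 3 (adjusted p = 0.0444). It lost its call without p63alphaKO replicate 1, 2 or 3 (adjusted p of 0.1004, 0.106 and 0.181) or without WT replicate 2 (0.0507), and under edgeR (0.0633). Of the 75-base windows at its 3' end, 8.41% were shared with another gene of the family, Lce1d.

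The 3 Lce1 genes with the highest mean are given library by library. Lce1a1 had 3074, 3015 and 3547 CPM in p63alphaKO libraries, against 2569, 2059 and 1125 CPM in WT libraries (log2 fold change 0.82 ± 0.23, limma adjusted p = 0.0882). Lce1m had 3120, 2752 and 3235 CPM in p63alphaKO libraries, against 2376, 1782 and 993 CPM in WT libraries (0.91 ± 0.24, adjusted p = 0.0681). Lce1a2 had 2361, 2457 and 2998 CPM in p63alphaKO libraries, against 2025, 1516 and 668 CPM in WT libraries (1.03 ± 0.29, adjusted p = 0.0864). All 3 had separate groups with WT replicate 3 lowest, and none passed the threshold; without WT replicate 3 the log2 fold changes were 0.48 for Lce1a1, 0.56 for Lce1m and 0.56 for Lce1a2. The other 10 Lce1 genes had adjusted p-values from 0.0556 to 0.216 by limma. Of these, Lce1f had 875, 924 and 1083 CPM in p63alphaKO libraries, against 618, 496 and 174 CPM in WT libraries; it was picked for its call without WT replicate 3 (log2 fold change 0.79, adjusted p = 0.0196).

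Lce3 genes are known in human skin to be induced by barrier injury and in psoriasis. Lce3c, the one closest to the threshold, had 464, 575 and 1022 CPM in p63alphaKO libraries, against 452, 239 and 162 CPM in WT libraries (log2 fold change 1.32 ± 0.32, limma adjusted p = 0.0547). Lce3d had 95.1, 198 and 398 CPM in p63alphaKO libraries, against 97.8, 121 and 24.6 CPM in WT libraries (1.54 ± 0.51, adjusted p = 0.148). Lce3e had 99.9, 148 and 236 CPM in p63alphaKO libraries, against 120, 68.1 and 20.8 CPM in WT libraries (1.43 ± 0.46, adjusted p = 0.133). In these genes p63alphaKO replicate 3 was the highest of all libraries, and p63alphaKO replicate 1 was within or barely above the WT range. Lce3f behaved likewise, with 20.3, 28.0 and 60.6 CPM in p63alphaKO libraries, against 22.2, 20.8 and 5.67 CPM in WT libraries (1.17 ± 0.47, adjusted p = 0.237). Without WT replicate 3 the log2 fold changes were 0.98 for Lce3c, 0.84 for Lce3d, 0.74 for Lce3e and 0.58 for Lce3f, with adjusted p-values of 0.123, 0.396, 0.314 and 0.580. Lce3 reads per Lce1 read were 0.0403, 0.0572 and 0.0859 in p63alphaKO libraries, against 0.04996, 0.0436 and 0.0432 in WT libraries, so p63alphaKO replicates 2 and 3 lay above and replicate 1 below all WT libraries. Lce3a stood at 3.67, 3.49 and 5.37 CPM in p63alphaKO libraries, against 1.95, 1.34 and 0 CPM in WT libraries; its groups did not overlap, but its mean was below the minimum for the test. Lce3b had between 0 and 14 reads in p63alphaKO libraries and between 0 and 2 reads in WT libraries. For Lce3d, 35.8% of 3'-end windows were shared with Lce3c, so reads of the pair could be split between them or lost.

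Lce6a, the sole Lce6 gene, had 218, 198 and 274 CPM in p63alphaKO libraries, against 191, 177 and 77.1 CPM in WT libraries (log2 fold change 0.72 ± 0.28, limma adjusted p = 0.217). The groups did not overlap, yet without WT replicate 3 the log2 fold change was 0.31 (adjusted p = 0.546). This was the smallest value among the 19 tested Lce genes with all libraries and without that one.

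Windows of 250 bases upstream of the RefSeq start sites (build GRCm38.p6) were available for 34 of the 35 genes, and 3 Lce windows are shown because their genes carry the call (Lce1k), the most Lce reads (Lce1a1) and the smallest adjusted p in Lce3 (Lce3c). They lie at chr3:92807892-92808141 on the minus strand, chr3:92648308-92648557 on the minus strand and chr3:92944236-92944485 on the plus strand. Capitals mark ATAAAA or TATAAA on the gene's strand and the antioxidant response element core TGACNNNGC on either strand.
Lce1k: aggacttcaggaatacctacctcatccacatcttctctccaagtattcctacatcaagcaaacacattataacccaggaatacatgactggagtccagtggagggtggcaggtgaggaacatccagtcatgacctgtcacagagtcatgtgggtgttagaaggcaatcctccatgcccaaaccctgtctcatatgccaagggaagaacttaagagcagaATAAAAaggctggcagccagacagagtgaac
Lce1a1: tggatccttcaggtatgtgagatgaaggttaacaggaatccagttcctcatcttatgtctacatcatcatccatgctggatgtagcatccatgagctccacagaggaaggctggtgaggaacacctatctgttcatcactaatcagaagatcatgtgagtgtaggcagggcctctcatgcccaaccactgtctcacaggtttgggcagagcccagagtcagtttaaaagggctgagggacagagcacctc
Lce3c: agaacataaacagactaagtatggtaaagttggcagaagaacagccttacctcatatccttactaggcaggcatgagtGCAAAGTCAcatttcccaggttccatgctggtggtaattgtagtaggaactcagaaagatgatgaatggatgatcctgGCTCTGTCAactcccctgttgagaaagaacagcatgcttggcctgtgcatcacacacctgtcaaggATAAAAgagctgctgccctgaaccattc
An AP-1 motif (TGANTCA, either strand) was absent from all 20 Lce windows, and 6.75% of 32841 windows of all genes held it. TGACNNNGC, a core that Nrf2 is known to bind, was present in 5 of 20 Lce windows (Lce1d, Lce3c, Lce3d, Lce3e and Lce6a), against 10.2% of all windows. ATAAAA, a motif added after the windows had been read, was present in 18 of 20 Lce windows, against 10.2% of all, and TATAAA in 2 of 20, against 7.59% of all; the 2 motifs can overlap. In Lce1k and Lce3c the ATAAAA match begins 31 and 28 bases before the start. Neither a pair of CATG cores 6 bases apart, as in p63 half-sites, nor a KLF motif (GGGNGTGG) was found in any Lce or Sprr window, against 0.490% and 15.9% of all windows. Lce1 windows shared a median of 63.6% of bases over 78 pairs, against 52.3% between Lce1 and Lce3. The windows of Lce3c, Lce3d and Lce3e shared 75.2% to 83.7% of bases with one another. Matches in Lce windows are therefore not independent of one another.

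Sprr1 proteins were among the first cross-bridging envelope proteins described, and both genes are known to be induced when keratinocytes are stressed. Sprr1b had 1111, 1373 and 1709 CPM in p63alphaKO libraries, against 701, 897 and 135 CPM in WT libraries. Sprr1a had 1124, 1635 and 2057 CPM in p63alphaKO libraries, against 1027, 1064 and 182 CPM in WT libraries. For both, the groups were separate, p63alphaKO replicate 1 was nearest to WT, and WT replicate 3 stood at 0.169 (Sprr1b) and 0.174 (Sprr1a) of the mean of the other WT libraries. The log2 fold change was 1.64 ± 0.48 for Sprr1b (limma adjusted p = 0.0959) and 1.41 ± 0.48 for Sprr1a (adjusted p = 0.157). Without WT replicate 3 the log2 fold changes were 0.79 for Sprr1b, which then passed the threshold (adjusted p = 0.0403), and 0.58 for Sprr1a (adjusted p = 0.220).

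Of 7 tested Sprr2 genes, 3 had groups that did not overlap, and 0 were called. Sprr2h had 434, 508 and 606 CPM in p63alphaKO libraries, against 266, 376 and 77.5 CPM in WT libraries (log2 fold change 1.36 ± 0.40, limma adjusted p = 0.0959). Sprr2d had 294, 354 and 382 CPM in p63alphaKO libraries, against 161, 280 and 43.8 CPM in WT libraries (1.43 ± 0.45, adjusted p = 0.115). Sprr2e had the smallest adjusted p of the family, with 74.3, 88.8 and 114 CPM in p63alphaKO libraries, against 32.3, 58.5 and 13.2 CPM in WT libraries (1.59 ± 0.38, adjusted p = 0.0519). These 3 genes had separate groups and kept positive differences of 0.69, 0.68 and 1.04 without WT replicate 3. Sprr2d and Sprr2h are known to be raised in skin of mice that lack loricrin.

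Sprr2b and Sprr2f did not show that separation. Sprr2b had 49.97, 97.6 and 91.3 CPM in p63alphaKO libraries, against 64.3, 105 and 13.2 CPM in WT libraries (log2 fold change 0.75 ± 0.52, limma adjusted p = 0.545). Sprr2f, named after its values were seen, had 20.9, 42.2 and 50.1 CPM in p63alphaKO libraries, against 51.4, 53.8 and 7.56 CPM in WT libraries (0.33 ± 0.55, adjusted p = 0.837). All 3 p63alphaKO libraries of Sprr2f lay below WT replicates 1 and 2, and the positive difference came from WT replicate 3. Without it the log2 fold change was -0.10 for Sprr2b (adjusted p = 0.931) and -0.56 for Sprr2f (adjusted p = 0.529). As a share of Sprr family reads, Sprr2f took 0.663%, 1.02% and 0.977% in p63alphaKO libraries, against 2.20%, 1.86% and 1.56% in WT libraries. Sprr2b took 1.59%, 2.35% and 1.78% in p63alphaKO libraries, against 2.75%, 3.61% and 2.72% in WT libraries. Both shares were lower in every p63alphaKO library than in any WT library, WT replicate 3 included, while Sprr1b took 33.0% to 35.3% of family reads in p63alphaKO libraries and 27.7% to 31.0% in WT libraries. These shares were picked after their values were seen and were not tested.

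The other Sprr genes had few reads. Sprr2i had 18.1, 34.1 and 73.1 CPM in p63alphaKO libraries, against 7.40, 29.7 and 9.13 CPM in WT libraries, and Sprr2k had 16.4, 16.9 and 44.1 CPM in p63alphaKO libraries, against 25.3, 19.2 and 3.15 CPM in WT libraries. Both had overlapping groups, with p63alphaKO replicate 3 highest (limma adjusted p = 0.178 for Sprr2i and 0.5005 for Sprr2k). The log2 fold changes were 1.42 and 0.89, and without WT replicate 3 they were 1.19 for Sprr2i and 0.06 for Sprr2k. Sprr3, an envelope gene of internal stratified epithelia such as the oesophagus, had 6 reads in p63alphaKO replicate 1 (1.69 CPM) and 0 reads in the other 5 libraries, where 3 reads would be at most 1.17 CPM. Sprr4 had 7, 0 and 1 reads in p63alphaKO libraries, against 4, 0 and 0 reads in WT libraries. Sprr2a3 ranged from 2.09 to 7.86 CPM in p63alphaKO libraries and from 0.780 to 11.4 CPM in WT libraries. Sprr2a1 had at most 2 reads in any library, and Sprr2a2 had none. At their 3' ends Sprr2a1, Sprr2a2 and Sprr2a3 shared 100%, 100% and 67.7% of windows with one another or another family gene, and exons of Sprr2a1 and Sprr2a2 overlap on the same strand, so low counts of these 3 are uncertain.

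Upstream windows of 4 Sprr genes are shown, 2 from Sprr1 and, from Sprr2, the gene with the smallest adjusted p (Sprr2e) and the one nearest to no change (Sprr2f). They lie at chr3:92438780-92439029 (Sprr1b) and chr3:92485882-92486131 (Sprr1a) on the minus strand, and at chr3:92351893-92352142 (Sprr2e) and chr3:92364937-92365186 (Sprr2f) on the plus strand. Sequences are from RefSeq, build GRCm38.p6, and capitals mark matches to TGANTCA or TGACNNNGC on either strand and to TATAAA or ATAAAA on the gene's strand.
Sprr1b: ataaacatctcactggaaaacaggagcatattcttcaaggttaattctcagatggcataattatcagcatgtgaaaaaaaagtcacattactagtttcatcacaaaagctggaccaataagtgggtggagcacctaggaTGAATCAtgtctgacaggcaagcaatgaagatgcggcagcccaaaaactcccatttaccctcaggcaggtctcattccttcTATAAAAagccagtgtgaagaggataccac
Sprr1a: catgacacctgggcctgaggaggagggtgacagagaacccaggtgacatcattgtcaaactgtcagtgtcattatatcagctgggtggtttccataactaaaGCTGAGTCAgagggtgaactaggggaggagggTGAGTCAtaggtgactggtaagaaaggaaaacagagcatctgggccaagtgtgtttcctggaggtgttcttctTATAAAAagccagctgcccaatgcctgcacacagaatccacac
Sprr2e: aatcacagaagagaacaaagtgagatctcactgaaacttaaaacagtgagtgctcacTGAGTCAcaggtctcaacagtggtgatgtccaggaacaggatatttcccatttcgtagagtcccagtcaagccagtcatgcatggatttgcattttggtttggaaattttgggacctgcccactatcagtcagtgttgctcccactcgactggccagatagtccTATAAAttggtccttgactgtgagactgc
Sprr2f: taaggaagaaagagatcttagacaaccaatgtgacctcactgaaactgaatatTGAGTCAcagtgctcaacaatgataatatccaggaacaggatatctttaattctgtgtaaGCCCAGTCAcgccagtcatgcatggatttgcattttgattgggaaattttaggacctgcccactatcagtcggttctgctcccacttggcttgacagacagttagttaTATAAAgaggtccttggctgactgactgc
TGANTCA was present in 9 of 14 Sprr windows, against 6.75% of all 32841 windows, and those 9 belong to the 9 tested Sprr genes. The windows without it include those of Sprr2a1, Sprr2a2 and Sprr2a3, which shared 79.9% to 100% of bases with one another. Counts of these Sprr2a genes are uncertain, and a link between the motif and expression was not tested. In the 7 tested Sprr2 genes a match begins between 193 and 198 bases before the start, and it reads the same letters in Sprr2e and Sprr2f, whose log2 fold changes were 1.59 and 0.33. In Sprr1b the match begins 111 bases before the start, and Sprr1a holds 2 matches, at 116 and 146 bases, of which the farther overlaps a TGACNNNGC match. TATAAA was found in 10 of 14 Sprr windows, beginning 29 bases before the start in all 7 tested Sprr2 genes, against 7.59% of all windows. TGACNNNGC was found in 2 of 14 (Sprr1a and Sprr2f), against 10.2% of all. Sprr2 windows shared a median of 62.2% of bases over 45 pairs, so these matches are not independent of one another. A match in a window describes letters and not a bound site.

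**Figure D3:**
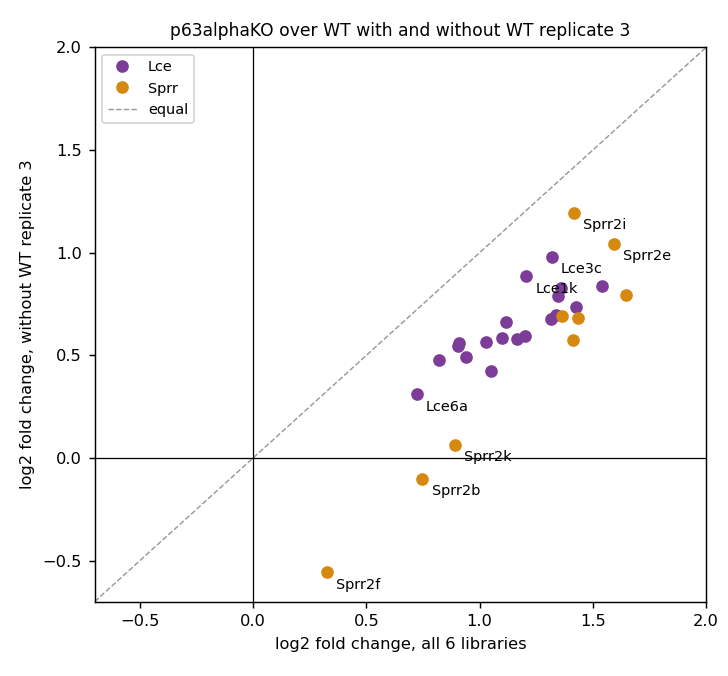
Difference between p63alphaKO and WT in mean log2(CPM + 1), as a log2 fold change, for the 28 tested genes, from all 6 libraries (x axis) and without WT replicate 3 (y axis); the dashed line marks equal values. All points lie below the line, all 19 Lce genes stay above 0 on the y axis, and Sprr2b and Sprr2f fall below 0.

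The 35 genes lie in 803.3 kb of mouse chromosome 3 (chr3:92215799-93019060, GENCODE release 21 on GRCm38), within the epidermal differentiation complex. The 14 Sprr genes span 284.7 kb and the 21 Lce genes span 399.0 kb, with Ivl between them, and 16 genes are on the plus strand and 19 on the minus strand. The span held 36 tested genes, of which 8 were not among the 35, and all 8 had positive log2 fold changes; 1 of the 8 is Sprr2j-ps, the row left out above (1.89, limma adjusted p = 0.252). Of these, Kprp (keratinocyte proline-rich protein), between Lce1k and Lce1l, was called, with 1197, 1422 and 1634 CPM in p63alphaKO libraries, against 1005, 580 and 446 CPM in WT libraries (1.14 ± 0.24, limma adjusted p = 0.0260; 0.88 without WT replicate 3, adjusted p = 0.0412). Kprp lost its call without p63alphaKO replicate 1, 2 or 3 (adjusted p of 0.0737, 0.0814 and 0.196), without WT replicate 2 (0.0629) and under edgeR (0.0839). Its groups did not overlap, and p63alphaKO replicate 1 was the nearest to WT. The other 7 were not called, among them 2210017I01Rik (1.24, adjusted p = 0.0546), 2310050C09Rik (0.99, adjusted p = 0.0731) and Crct1 (0.63, adjusted p = 0.132), while Ivl stood at 0.04 (adjusted p = 0.944). Within 200 kb outside the span, Lor stood at 0.21 (adjusted p = 0.590), Prr9 at -1.59 (adjusted p = 0.116) and Flg2 at -0.11 (adjusted p = 0.810). These neighbours were taken by position.

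**Figure D4:**
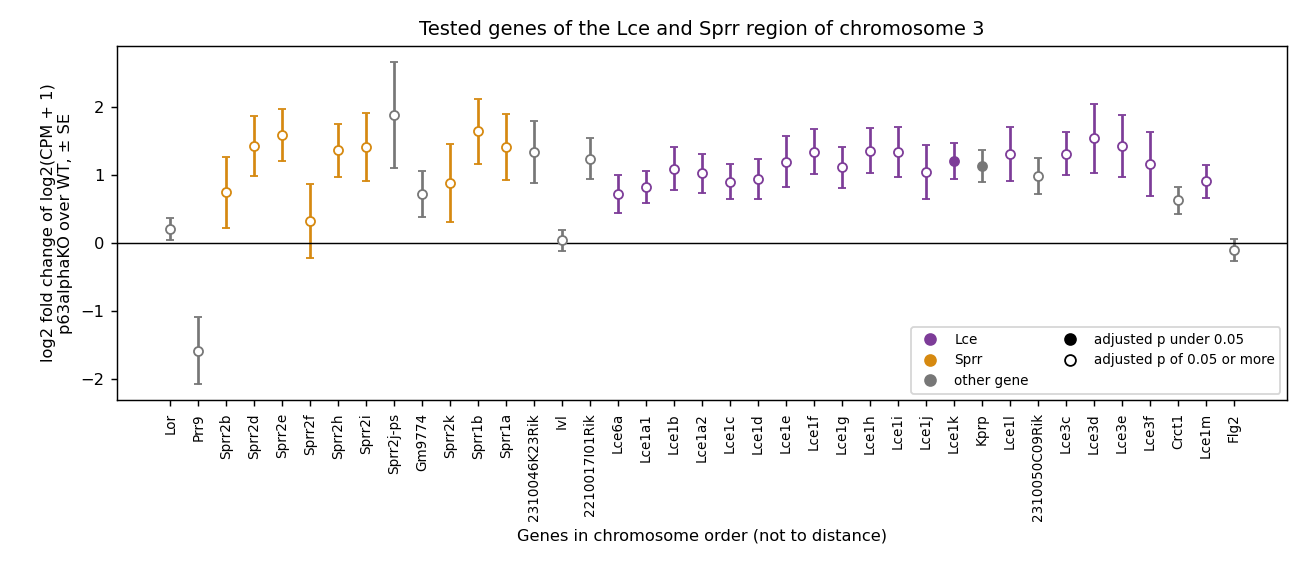
Difference between p63alphaKO and WT in mean log2(CPM + 1) ± SE for tested genes of the region in chromosome order, with Lce, Sprr and other genes in separate colours and filled points for an adjusted p under 0.05. Lce1k and Kprp are filled, Ivl lies at 0.04 among positive neighbours, and Lor, Prr9 and Flg2 lie outside the span.

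Lor and Ivl, the genes of 2 other proteins of the same shell, had p63alphaKO means of 1.17 and 1.03 times the WT means. The sums of the 2 families had 1.86 and 2.18 times. Lor (loricrin) had 12471, 12115 and 16584 CPM in p63alphaKO libraries, against 12087, 11673 and 11469 CPM in WT libraries. Ivl (involucrin) had 718, 740 and 864 CPM in p63alphaKO libraries, against 804, 663 and 794 CPM in WT libraries. The Lor groups did not overlap, by a narrow margin (the lowest p63alphaKO library at 1.002 times the highest WT library), the Ivl groups overlapped, and neither gene was called. WT replicate 3 was at 0.965 of the mean of the other WT libraries for Lor and at 1.08 for Ivl, so its low level was seen in the Lce and Sprr genes and not in these 2. Lce reads per Lor read were 1.43, 1.47 and 1.33 in p63alphaKO libraries, against 1.22, 0.940 and 0.456 in WT libraries. Lce reads per Ivl read were 24.9, 24.0 and 25.6 in p63alphaKO libraries, against 18.4, 16.5 and 6.58 in WT libraries. Groups did not overlap in either Lce ratio. The p63alphaKO mean was 1.62 times the WT mean for Lce over Lor and 1.79 times for Lce over Ivl, and 1.30 and 1.42 times without WT replicate 3. The Lce over Ivl ratio had an SD of 0.768 in p63alphaKO and 6.35 in WT, and of 1.30 in WT without replicate 3. Sprr reads per Lor read were 0.253, 0.343 and 0.309 in p63alphaKO libraries, against 0.193, 0.248 and 0.0424 in WT libraries, where the lowest p63alphaKO ratio was 1.02 times the highest WT ratio. The mean Sprr over Lor ratio was 1.87 times that of WT, and 1.37 times without WT replicate 3. For Sprr over Ivl the lowest p63alphaKO ratio was 1.006 times the highest WT ratio. Against Krt1 that value was 0.830 for Sprr, where the groups overlapped, and 1.16 for Lce. Against Flg it was 1.02 for Sprr and 1.21 for Lce, and against Krt10 it was 1.23 and 1.19. Against Kprp the groups overlapped: the mean ratio in p63alphaKO was 0.903 times that in WT for Lce and 1.03 times for Sprr.

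**Figure D5:**
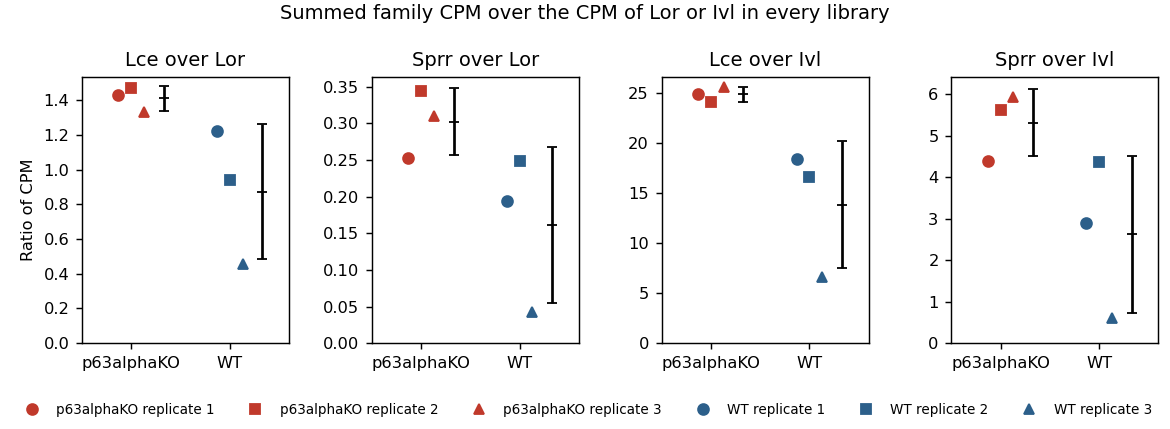
Summed Lce or Sprr CPM divided by the CPM of Lor or Ivl (y axes, starting at 0) in each library, with black bars for mean ± SD. The Lce over Ivl ratio lies between 24.0 and 25.6 in p63alphaKO and between 6.58 and 18.4 in WT.

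Lists of other envelope genes showed scattered calls. A list of structural genes of the complex outside both families had 12 tested genes. It also held S100a10, S100a11 and Nccrp1, and not all its genes were placed on the chromosome here. Of the 12 tested genes, 1 was called higher (Kprp) and none lower, with a median log2 fold change of 0.20. Of the 12, 10 were positive and 5 were higher without overlap, against 40.2% and 7.6% of all tested genes. Rptn, the envelope protein repetin, had 46.9, 32.6 and 31.3 CPM in p63alphaKO libraries, against 12.1, 19.4 and 16.7 CPM in WT libraries (1.15, limma adjusted p = 0.0547). Of 11 tested envelope genes from other loci 1 was called higher, Krt77, a suprabasal keratin (1.87, adjusted p = 0.000219), and the median was 0.11. Of these 11, 7 were positive and 5 were higher without overlap. Cnfn (cornifelin) stood at 0.63 (adjusted p = 0.0669), Asprv1, a profilaggrin protease, at 0.55 (adjusted p = 0.123) and Cdsn, an adhesive protein of the outer layers, at 0.33 (adjusted p = 0.344). None of 8 tested cross-linking and lipid-envelope genes was called by limma (2 had an unadjusted p under 0.05), and the smallest adjusted p was 0.175, for Sdr9c7, a dehydrogenase of the lipid envelope (0.50). Of these 8, 4 were positive and 2 were higher without overlap.

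Of 28 regulators of late keratinocyte differentiation, 16 were positive and 5 were higher without overlap, against 40.2% and 7.6% of all tested genes. Their median log2 fold change was 0.05. Among the 28, 2 were called higher and 1 lower, against 1.65% of all tested genes called in either direction. They were Trp63 (0.93, limma adjusted p = 0.0192), Prdm1, a repressor that acts in the uppermost living layers (0.74, adjusted p = 0.0456), and Fos, an AP-1 subunit (-0.72, adjusted p = 0.0335). Prdm1 had 466, 621 and 513 CPM in p63alphaKO libraries, against 325, 364 and 265 CPM in WT libraries. Fos had 457, 350 and 398 CPM in p63alphaKO libraries, against 645, 723 and 615 CPM in WT libraries. Groups did not overlap for either gene, but both lost their calls without p63alphaKO replicate 1, 2 or 3 (adjusted p of 0.0994, 0.1998 and 0.179 for Prdm1 and 0.0762, 0.175 and 0.166 for Fos). Prdm1 also lost its call without WT replicate 1 (0.0542) or 3 (0.0839), and Fos without WT replicate 2 (0.0817). Trp63 lost its call without p63alphaKO replicate 1, 2 or 3 (0.0998, 0.0971 and 0.0854). Fos also lost it with TMM or upper quartile scaling (0.0744 and 0.0837), and both Prdm1 and Fos under edgeR (0.0606 and 0.0876).

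Nrf2 is a factor known to raise Sprr2d and Sprr2h when active in mouse keratinocytes. Of 7 tested Nrf2 targets 5 were positive, with a median of 0.64. Of the 7, 1 was called higher and none lower, against 0.469% of all tested genes called higher. This was Hmox1, which encodes haem oxygenase 1, with 39.5, 63.5 and 70.1 CPM in p63alphaKO libraries, against 33.1, 20.8 and 19.2 CPM in WT libraries (1.21, limma adjusted p = 0.0451). Its groups did not overlap, and its call was lost without p63alphaKO replicate 2 (adjusted p = 0.156) or 3 (0.243), without WT replicate 2 (0.0974) or 3 (0.0914) and under edgeR (0.0676). Txnrd1, a thioredoxin reductase, stood at 0.93 (adjusted p = 0.0669), Slpi, a protease inhibitor, at 1.82 (adjusted p = 0.209) and Gclc, a glutathione synthesis enzyme, at -1.12 (adjusted p = 0.196).

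A level this low in WT replicate 3 was shared by few genes. It lay under 0.5 times the lower of the other WT libraries for 14 of 19 Lce and 8 of 9 Sprr genes, against 2.38% of all tested genes. Its ratio to their mean had a median of 0.339 over Lce genes, 0.174 over Sprr genes and 1.06 over all tested genes. No gene of the lists of other structural, envelope or cross-linking genes, or of the keratinocyte markers, met that measure, whereas 4 of 28 regulators (Elf3, Fosl1, Hopx and Junb) and 1 of 7 Nrf2 targets (Slpi) did. Kprp, on the structural list, stood at 0.563 of the mean of the other WT libraries. Milder lows in WT replicate 3 occurred on these lists too. In WT replicates 1 to 3, Crct1 had 2905, 2117 and 1512 CPM, and Cnfn had 830, 788 and 587 CPM. Asprv1 had 6813, 6549 and 4891 CPM. Others were not low there, such as Flg, with 18961, 17246 and 25461 CPM, and Evpl, with 419, 436 and 447 CPM. These genes were picked after their values were seen. Genes outside these lists also met the measure of 0.5 times, of which 3 were named after their values were seen. In WT replicates 1 to 3, 2310050C09Rik, inside the span, had 1613, 1346 and 642 CPM. Krt16, a keratin, had 837, 821 and 250 CPM, and Plet1 had 240, 247 and 69.3 CPM. Fosl1, an AP-1 subunit, had 150, 99.6 and 140 CPM in p63alphaKO libraries, against 90.4, 98.3 and 22.7 CPM in WT libraries (1.11, limma adjusted p = 0.199). Junb had 756, 842 and 816 CPM in p63alphaKO libraries, against 862, 888 and 429 CPM in WT libraries (0.22, adjusted p = 0.708). Both AP-1 genes were lowest in WT replicate 3, and their part in the Sprr values was not tested. At the other end, p63alphaKO replicate 3 was the highest library for 16 Lce and 7 Sprr genes, against 11.6% of all tested genes.

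Markers of other cells also differed between the groups. Among all 7464 tested genes 88 were called lower. Summed CPM of 13 fibroblast and dermis markers spanned 576 to 984 in p63alphaKO and 2628 to 5655 in WT, with 9 of 11 tested markers called lower. Sums of 10 muscle markers spanned 60.4 to 103 CPM in p63alphaKO and stood at 444, 2564 and 440 CPM in WT replicates 1 to 3, where replicate 2 stood apart, with 6 of 8 tested called lower. Sums of 8 blood markers spanned 559 to 1769 CPM in p63alphaKO and 1903 to 3441 CPM in WT, with 3 of 4 tested called lower. None of the markers on these 3 lists was at 0 in all libraries. Sums of 10 hair follicle markers went the other way, at 668 to 834 CPM in p63alphaKO and 439 to 465 CPM in WT. Plet1 and Krt79 gave most of that sum, so it does not describe the other markers. Of 6 tested, 3 were positive and 3 negative, with a median log2 fold change of -0.51. Plet1 was called higher, and Krt71 and Krt25 lower. Sums of 6 melanocyte markers were 316 to 455 CPM in p63alphaKO and 184 to 308 CPM in WT, with 0 of 2 tested called. Sums of 8 endothelial and immune markers were lower (7.16 to 16.3 against 19.2 to 42.9 CPM), and those of 8 periderm markers overlapped. The part of all these cells in the Lce and Sprr values was not tested. WT replicate 3 was at 0.978 of the mean of the other WT libraries for the fibroblast markers, so it did not stand apart there.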

How the data were processed

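Expression was measured by 3'DGE in 6 epidermis libraries, 3 p63alphaKO and 3 WT, grouped by the sample labels. STAR, HTSeq and mm10 are named in the submitters' processing notes; versions, annotation, strand setting and use of molecular identifiers are not given there, and the labels name a Qiagen kit in one field and a Zymo kit in another. The authors deposited one table in CPM, normalized to library totals (columns sum to between 999157 and 999401). Whole reads were recovered from the CPM steps (100% of values whole within 0.0055 CPM) for the depths and the count tests. The limit set by 3 reads was 0.670 to 1.17 CPM and covers counting error only.

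limma-trend (limma 3.58.1, R 4.3.3) was fitted on log2(CPM + 1) using 7464 genes whose mean reached 10 CPM. Genotype was the sole term, tests were two-sided, and an adjusted p below 0.05 (Benjamini-Hochberg) made a call. Fold changes on this scale understate those of low genes. With 3 libraries against 3, an exact permutation test cannot go below p = 0.1, so none was run. The 17 alternatives, among them edgeR 4.0.16 and DESeq2 1.42.0 on recovered reads, are reported in the closing section.

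The members and gene lists were chosen with earlier results of these data known. Values per library are given for the 3 tested genes with the highest mean, the gene with the smallest p and called genes of each subfamily, and for subfamilies of at most 3 genes; up to 4 genes per list were named by their p. Genes named otherwise are marked or were taken by position. Sums, shares and ratios were not tested. Positions are from GENCODE release 21 (GRCm38), and upstream windows are from RefSeq (GRCm38.p6). Windows of 75 bases in the last 300 bases of each transcript were compared between family genes; 23 genes shared none.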

Additional observations from a re-analysis of the deposited data

How the results depend on the processing

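The medians of both families kept their sign under all 17 alternatives, and leaving out 1 library gave 0.592 to 1.48 for Lce and 0.683 to 1.85 for Sprr. The lowest of these were the medians without WT replicate 3. All medians moved by less than the pooled SD of library medians within groups (0.648 for Lce and 1.09 for Sprr, log2 scale). WT replicate 3 widens that SD, so it is a loose limit and does not show that the medians were stable. Counts of calls moved more. Over all tested genes there were 123 calls, 35 higher and 88 lower; this became 256 with a minimum mean of 1 CPM, 36 with a minimum of 50 CPM, 317 with DESeq2 (152 higher, 165 lower), and 37 to 186 when 1 library was left out, while the split was 48 to 65 with TMM and 69 to 64 with the upper quartile. Lce calls numbered 4 with a pseudocount of 5, 6 with a minimum of 1 CPM, 0 with a minimum of 50 CPM, 0 with edgeR, 4 with DESeq2 and 0 to 15 when 1 library was left out. Sprr calls numbered 1 each with a pseudocount of 5, a minimum of 1 CPM, the upper quartile and DESeq2, and 0 to 5 when 1 library was left out. The cause was not tested, apart from the number of genes tested, which the filters set. Without WT replicate 3, Sprr2b (-0.10) and Sprr2f (-0.56) reversed; over the single libraries left out they ran up to 1.35 and 0.78. Deviations of same-numbered libraries from their group means had r of -0.0234, 0.066 and -0.108 for replicates 1 to 3. Unlike-numbered pairs had r from -0.133 to 0.151. With 3 libraries per group these values cannot decide whether the numbers pair libraries. A fit with the replicate block gave 127 calls over all genes, 6 in Lce and 1 in Sprr. Low reads kept Sprr3, Sprr4, Lce3a, Lce3b and the Sprr2a genes out of the main test.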

Other observations

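Other genes with the pattern of WT replicate 3 were read off after the values were seen and are given as values only. Ereg, an epidermal growth factor receptor ligand, had 125, 196 and 324 CPM in p63alphaKO libraries, against 154, 211 and 35.3 CPM in WT libraries. Serpinb2, a serine protease inhibitor of the upper epidermis, had 642, 601 and 823 CPM in p63alphaKO libraries, against 531, 663 and 167 CPM in WT libraries. Adm, which encodes adrenomedullin, had 402, 353 and 313 CPM in p63alphaKO libraries, against 325, 184 and 61.1 CPM in WT libraries. Nr4a1, an immediate early gene, had 225, 122 and 153 CPM in p63alphaKO libraries, against 200, 186 and 52.3 CPM in WT libraries. In these 4 genes WT replicate 3 was the lowest of all libraries.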
